A study of Mus musculus with 8 samples.

Results

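The SR splicing factors are a family of RNA-binding proteins named for their tails of alternating serine and arginine. The genes described here are the 10 members Srsf1, Srsf2, Srsf3, Srsf4, Srsf5, Srsf6, Srsf7, Srsf9, Srsf10 and Srsf11. Their rows were taken by gene symbol, and the members were chosen with earlier results of these data known. They held 72 of the 93738 usable transcript rows and 10 of the 34976 gene symbols in the deposited table. Amplified cDNA was sequenced from embryos of the outbred CF-1 mouse stock at the late 2-cell stage. Early 1-cell embryos had received either a scrambled control morpholino or a morpholino directed at MED13, and both groups were therefore injected. Each group had 4 collections of 40 pooled embryos, 8 libraries in all, so p-values measure the spread between collections. A morpholino is an antisense oligomer that blocks the translation or the splicing of its target RNA, and MED13 is a subunit of the kinase module of Mediator, the complex that links transcription factors to RNA polymerase II. By the series title, the comparison concerns the activation of the zygotic genome.

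SR proteins bind short exonic sequences through RNA recognition motifs and recruit the splicing machinery through the serine and arginine tail, whose phosphorylation sets where the protein sits and whether it is active. Some members leave the nucleus with spliced mRNA and hand it to export factors. Many SR genes limit their own protein by including an exon with an early stop codon, often called a poison exon, or by splicing after the normal stop, which marks the mRNA for nonsense-mediated decay (NMD). In the mouse, transcripts made by the 1-cell embryo are poorly spliced, and splicing becomes efficient at the 2-cell stage.

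Library totals read back from the values ranged from 31378977 to 48050262 fragments. The targeted gene, Med13, had a summed FPKM (fragments per transcript length and library total, all isoform rows of a symbol added) of 41.3 ± 4.31 (SD, n = 4) in scrambled embryos and 42.2 ± 2.14 (SD, n = 4) in Med13 morpholino embryos (two-sided exact permutation p = 0.629). The labels give the morpholino's target as the Med13 transcription start site and do not say whether it blocks translation or splicing. Since a translation-blocking morpholino need not lower the mRNA it binds, the labels cannot be checked from this level. Scrambled replicate 2 stood apart in composition: its 10 most abundant genes held 20.8% of the summed FPKM. The share was 12.98% to 13.8% in scrambled replicates 1, 3 and 4, while Med13 morpholino libraries had 16.4% to 17.5%. Of 10 oocyte marker genes tested, 6 rose after Med13 morpholino and 0 fell, where 9.29% of all genes tested rose, and their list's summed FPKM ranged from 101 to 125 in scrambled and from 336 to 427 in Med13 morpholino libraries. Of 12 markers of the 2-cell embryo tested, 8 rose and 1 (Eif1a, named after its value was seen) fell, with summed FPKM of 110 to 232 and 261 to 597. Markers of sperm summed to at most 1.12 FPKM in any library, those of blood and immune cells to at most 4.17, and those of cumulus and granulosa cells to at most 17.4, of which 1 of 14 genes reached the tested level. The oviduct list summed to 25.9 to 36.0 FPKM in scrambled and 29.9 to 37.2 in Med13 morpholino libraries, and 1 of its 2 tested genes, Ovgp1, fell. No listed marker in the usable rows was at 0 in all 8 libraries. What part the oocyte and 2-cell markers have in the results on the Srsf genes was not tested.

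Of the 10 Srsf genes, 4 fell after Med13 morpholino (Srsf3, Srsf6, Srsf10 and Srsf11; limma, Benjamini-Hochberg adjusted p below 0.05 over 11755 genes), 6 were not called and 0 rose (0 also at an unadjusted p below 0.05, where 6 were lower). The log2 fold change was negative in 9. Of all genes tested, 7.81% were called lower and 9.29% higher. The median log2 fold change of the 10 genes was -0.61, beside -0.06 over all genes tested. In 3 genes, Srsf5, Srsf10 and Srsf11, every Med13 morpholino library lay below every scrambled library, and 11.1% of all tested genes separated the groups in this direction. The libraries are pools of whole embryos, so fewer embryos or cells with an RNA and less RNA per cell cannot be told apart.

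The count of 4 rested on single libraries, and the percent of all genes called lower, 7.81% in the main fit, moved as well and follows each count. The count was 1 (Srsf6; 5.95%) without scrambled replicate 1, 2 (11.4%) without replicate 2, 0 (3.54%) without replicate 3 and 5 (5.03%) without replicate 4. It was 1 (Srsf6, 4.61%) without Med13 morpholino replicate 1, 0 (2.96%) without replicate 2, 2 (4.27%) without replicate 3 and 5 (8.32%) without replicate 4. Leaving out scrambled replicate 2 and Med13 morpholino replicate 1 together, an alternative chosen after the data were seen, gave 0 calls (8.3% of all genes). The median log2 fold change of the 10 genes was then -0.31. In each of the 18 alternatives run, Srsf3, Srsf6, Srsf10 and Srsf11 had a negative log2 fold change, and their limma adjusted p reached at most 0.379, 0.0848, 0.0927 and 0.0939.

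**Figure D1:**
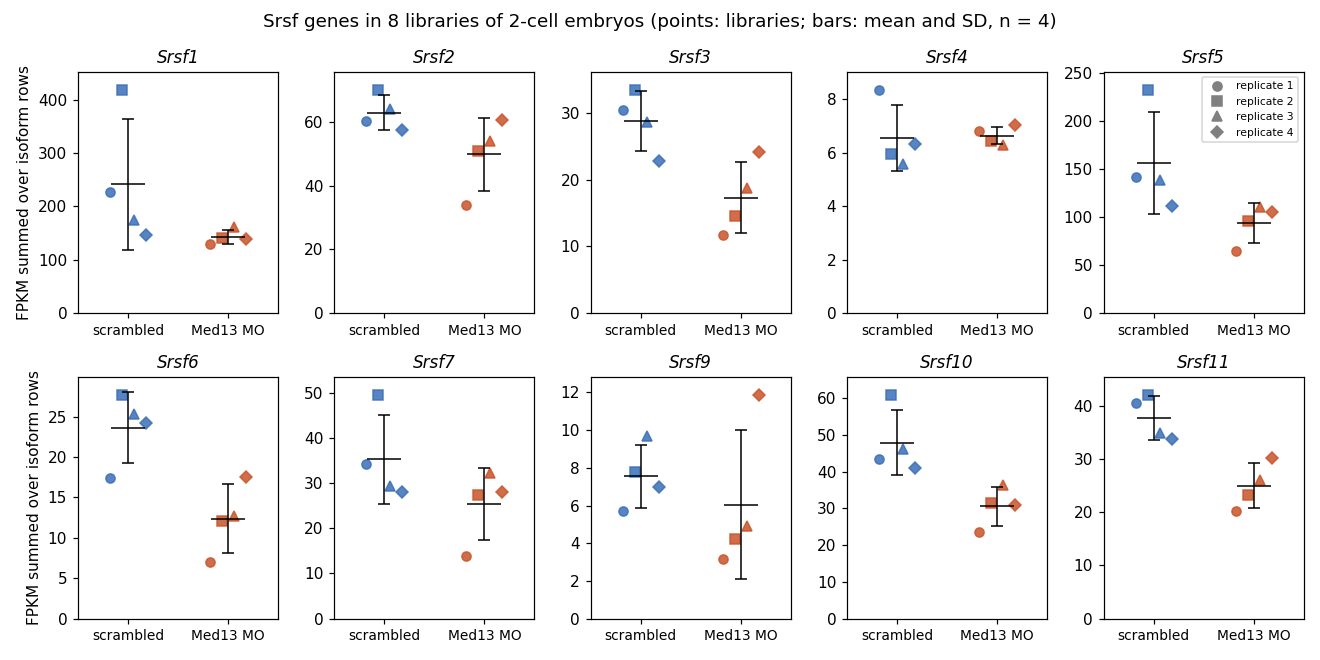
Summed FPKM (vertical axes, linear, from 0) of each Srsf gene in 4 scrambled and 4 Med13 morpholino (MO) libraries. Points are libraries, with a symbol for each replicate number, and black bars give the mean and SD. In Srsf5, Srsf10 and Srsf11 all 4 Med13 morpholino points lie below all 4 scrambled points, and in Srsf4 the groups overlap.

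Srsf3 is the smallest SR protein, an adaptor for mRNA export whose loss in mice stops development before the blastocyst. Its gene lies at chr17:29032628-29043373 (GRCm38, plus strand). Its summed FPKM was 30.4, 33.4, 28.6 and 22.7 in scrambled replicates 1 to 4 and 11.7, 14.6, 18.8 and 24.1 in Med13 morpholino replicates 1 to 4. Only Med13 morpholino replicate 4 reached the scrambled range, above scrambled replicate 4. The means were 28.8 ± 4.51 and 17.3 ± 5.37 (SD, n = 4 per group), and the gene fell by 0.74 on the log2(FPKM + 1) scale (SE 0.21, limma adjusted p = 0.0334). This call was lost in 6 of the 8 fits with 1 library left out, and with the most abundant row alone or no filter on low values.

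Within Srsf3 the coding row fell, and the row annotated for decay was not called. The coding isoform Srsf3-202 had 8.67, 9.43, 7.66 and 6.12 FPKM in scrambled replicates 1 to 4 and 2.04, 2.27, 4.30 and 5.61 in Med13 morpholino replicates 1 to 4, with no overlap (log2 fold change -1.04 ± 0.24 SE, limma adjusted p = 0.0122). Srsf3-201, which carries the poison exon and is annotated for NMD, had 7.26, 7.49, 6.77 and 5.62 FPKM in scrambled and 3.59, 5.40, 6.07 and 7.63 in Med13 morpholino libraries. These ranges overlap, and the row was not called (log2 fold change -0.25 ± 0.19 SE, limma adjusted p = 0.395). The poison exon is exon 4 of 7 in Srsf3-201, is 456 bases long and is absent from Srsf3-202. Its first 34 bases, chr17:29039454-29039487 (GRCm38, plus strand), run to the early stop codon, in capitals. They are shown because they mark the row whose share of FPKM differs below.
Srsf3-201 poison exon: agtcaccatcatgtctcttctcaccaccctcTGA

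Srsf6 binds exonic enhancers through a pair of RNA recognition motifs and had the most negative log2 fold change of the family in summed FPKM. Among coding rows that of Srsf3-202 was lower, at -1.04, against -0.87 for Srsf6-203. The Srsf6 gene lies at chr2:162931528-162937121 (GRCm38, plus strand). Its summed FPKM was 17.4, 27.7, 25.3 and 24.2 in scrambled replicates 1 to 4 and 7.06, 12.1, 12.7 and 17.6 in Med13 morpholino replicates 1 to 4. The groups touched only where Med13 morpholino replicate 4 passed scrambled replicate 1. The mean went from 23.7 ± 4.41 to 12.4 ± 4.29 (SD, n = 4 per group), 52.2% of the scrambled level (log2 fold change -0.93 ± 0.24 SE, limma adjusted p = 0.0206). This call was lost in 2 of the 8 fits with 1 library left out and with no filter on low values.

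In Srsf6 the rows for coding and for decay both fell. The coding row Srsf6-203 went from 12.1 ± 2.43 to 6.40 ± 2.51 FPKM (SD, n = 4 per group; log2 fold change -0.87, limma adjusted p = 0.0254). The NMD row Srsf6-201 went from 5.57 ± 1.25 to 3.06 ± 0.964 FPKM (log2 fold change -0.71, adjusted p = 0.0335), and the retained-intron row Srsf6-204 from 5.67 ± 1.10 to 2.70 ± 0.884 FPKM (-0.87, adjusted p = 0.0121). The poison exon of Srsf6-201 is exon 3 of 7, 268 bases long, and its stretch up to the stop codon, in capitals, is chr2:162932815-162932966 (GRCm38, plus strand), 152 bases. It is shown beside that of Srsf3 because the share of its row was also tested against the coding row.
Srsf6-201 poison exon: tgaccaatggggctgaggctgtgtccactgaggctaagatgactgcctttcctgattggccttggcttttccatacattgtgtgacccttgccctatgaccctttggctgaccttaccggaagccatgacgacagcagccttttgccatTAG

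Srsf10, which acts as a general splicing repressor once dephosphorylated, fell without overlap of the groups. Its summed FPKM was 43.4, 60.9, 46.3 and 41.0 in scrambled replicates 1 to 4 and 23.5, 31.4, 36.4 and 31.0 in Med13 morpholino replicates 1 to 4. The highest Med13 morpholino library lay under the lowest scrambled one (log2 fold change -0.63 ± 0.18 SE, limma adjusted p = 0.0324). Its coding rows summed to 32.5 ± 10.7 and 17.9 ± 3.53 FPKM, and its processed transcripts, which have no annotated reading frame, to 15.5 ± 2.92 and 12.7 ± 2.05 FPKM (SD, n = 4 per group). With median-ratio scaling, the most abundant row alone or no filter on low values, Srsf10 was no longer called. Its call was also lost in 5 of the 8 fits with 1 library left out.

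Srsf11, an SR-related member that contacts splice-site factors, also fell without overlap. Its summed FPKM was 40.4, 42.0, 34.8 and 33.6 in scrambled replicates 1 to 4 and 20.3, 23.2, 26.0 and 30.1 in Med13 morpholino replicates 1 to 4. All 4 Med13 morpholino libraries were below all 4 scrambled libraries (log2 fold change -0.59, SE 0.16, limma adjusted p = 0.0300). The call of Srsf11 was lost in 5 of the 8 fits with 1 library left out and with no filter on low values. Of its 19 rows, 8 reached the tested level and 3 of these fell: the coding rows Srsf11-202 (-0.61) and Srsf11-204 (-0.59) and the retained-intron row Srsf11-213 (-0.61), as log2 fold changes.

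Srsf1 and Srsf5 had the widest spread between scrambled collections relative to their means. Srsf5, first described as a gene induced in regenerating liver, had a summed FPKM of 142, 233, 139 and 112 in scrambled replicates 1 to 4 and 64.3, 96.0, 110.1 and 105.5 in Med13 morpholino replicates 1 to 4. The groups did not overlap, yet the gene missed the threshold (limma adjusted p = 0.0607, log2 fold change -0.70 ± 0.24 SE). It passed without scrambled replicate 4 and with sample weights. Srsf1, the prototype of the family in constitutive and alternative splicing, had 227, 419, 174 and 146 in scrambled and 130.4, 140.2, 161 and 139 in Med13 morpholino libraries. Scrambled replicate 2 was the highest library, and Med13 morpholino replicate 3 lay above scrambled replicate 4 (log2 fold change -0.64 ± 0.27 SE, limma adjusted p = 0.123).

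Srsf2, Srsf7 and Srsf9 were not called at gene level. Srsf2, a nuclear member of splicing speckles that also bears on the release of paused polymerase, had a summed FPKM of 62.9 ± 5.51 and 49.8 ± 11.4 (SD, n = 4 per group; log2 fold change -0.36, limma adjusted p = 0.208). Srsf7, a shuttling member with a zinc knuckle, had 35.3 ± 9.85 and 25.4 ± 7.99 (-0.49, adjusted p = 0.211). Srsf9 had 7.55 ± 1.66 and 6.04 ± 3.95 (-0.40, adjusted p = 0.362). In each of these genes 3 Med13 morpholino libraries lay below the lowest scrambled library. The exception was replicate 4 for Srsf2 and Srsf9 and replicate 3 for Srsf7. Srsf9 in Med13 morpholino replicate 4, at 11.9, was the highest of all 8 libraries.

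Srsf4, the member with the longest serine and arginine tail, was the single gene with no negative fold change. Its summed FPKM was 8.36, 5.97, 5.60 and 6.32 in scrambled replicates 1 to 4 and 6.82, 6.44, 6.31 and 7.02 in Med13 morpholino replicates 1 to 4. All 4 Med13 morpholino libraries lay within the scrambled range, and the difference was 0.03 on the log2 scale (95% interval from limma -0.30 to 0.36, adjusted p = 0.917). Whether Srsf4 differs from the other members in its response was not tested.

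The level of the family differed between libraries of 1 group. Averaged over the 10 genes, the deviation of log2(FPKM + 1) from each gene's own mean was 0.23, 0.59, 0.22 and 0.06 in scrambled replicates 1 to 4 and -0.70, -0.30, -0.13 and 0.04 in Med13 morpholino replicates 1 to 4. Med13 morpholino replicate 4 was close to scrambled replicate 4. Med13 morpholino replicate 1 was the lowest of the 8 libraries in 9 of the 10 genes, and scrambled replicate 2 the highest in 8. Srsf4 and Srsf9 departed from this: Srsf4 deviated by -0.12 in scrambled replicate 2 and by 0.05 in Med13 morpholino replicate 1, and Srsf9 by 0.81 in Med13 morpholino replicate 4 and by -0.13 in scrambled replicate 1. The share of the top 10 genes was also highest in scrambled replicate 2, and the part this has in the family's values was not tested.

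**Figure D2:**
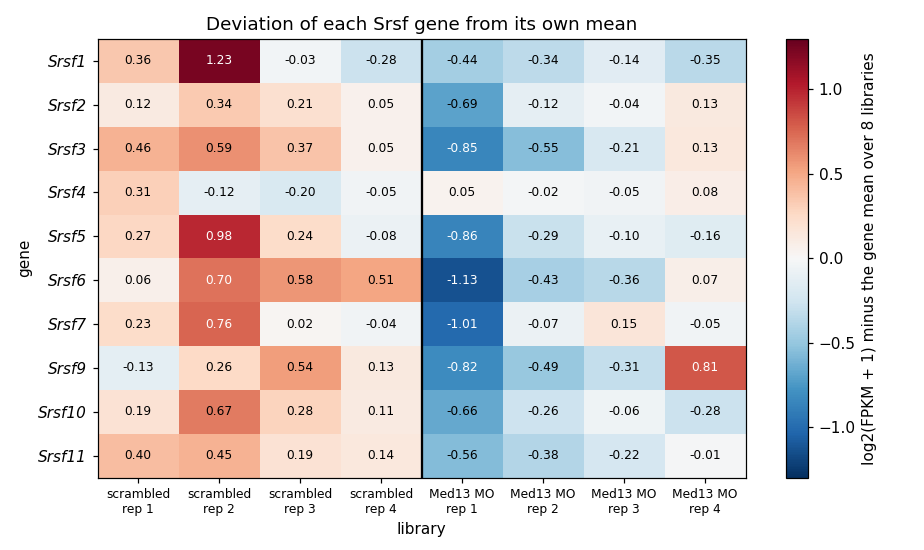
Deviation of log2(FPKM + 1) of each Srsf gene (rows) from its own mean over the 8 libraries (columns), with the colour scale in log2 units and the value written in each cell. Scrambled replicate 2 is mostly red and Med13 morpholino replicate 1 mostly blue, and Srsf4 stays pale in every library but scrambled replicate 1.

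The 5 tested genes outside the family whose profile over the 8 libraries was most like the family mean were Zfp160 (Pearson r 0.986), Rbmxl1 (0.981), 2310011J03Rik (0.978), Nip7 (0.978) and Rrp8 (0.977). All genes were read in the same 8 libraries, so differences between libraries in depth and composition enter every r, and the values are a description. Among the 5, Rbmxl1 went from 17.4 ± 5.42 to 9.87 ± 2.37 FPKM (SD, n = 4 per group; limma adjusted p = 0.0366) and 2310011J03Rik from 4.57 ± 1.06 to 2.56 ± 0.847 FPKM (adjusted p = 0.0427), and the other 3 were not called. Leaving out 1 library at a time removed both calls in 6 of 8 cases, and both were also lost with no filter on low values or with median-ratio scaling.

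Levels between members were compared by the most abundant protein-coding row of each gene, because isoform rows with shared exons hold nearly the same values and their sum counts fragments more than once. For Srsf5 the sum was 6.82 times that row. In scrambled libraries the order was Srsf1 (61.0 ± 28.7 FPKM, SD, n = 4), Srsf7 (35.3 ± 9.85), Srsf2 (24.6 ± 2.05), Srsf5 (22.9 ± 8.29), Srsf6 (12.1 ± 2.43), Srsf10 (11.2 ± 5.12), Srsf3 (7.97 ± 1.43), Srsf11 (7.35 ± 1.51), Srsf9 (3.47 ± 0.963) and Srsf4 (3.31 ± 0.712). Neighbours in this order overlapped except at 3 steps, from Srsf7 to Srsf2, from Srsf5 to Srsf6 and from Srsf11 to Srsf9. The first 6 ranks were the same after Med13 morpholino, where Srsf11 (4.44 ± 0.851 FPKM) stood above Srsf3 (3.55 ± 1.70 FPKM) and Srsf4 (3.48 ± 0.129 FPKM) above Srsf9 (2.96 ± 1.87 FPKM).

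At the level of single isoform rows, 56 of the 72 rows had a mean of at least 1 FPKM and were tested. Of these, 49 had a negative log2 fold change, 15 fell (limma, adjusted over 21052 rows) and 0 rose (0 also at an unadjusted p below 0.05). Of all rows tested, 7.57% were called lower and 8.17% higher. By annotated class, 7 of 25 protein-coding rows fell, 7 of 14 retained-intron rows, 1 of 7 NMD rows and 0 of 10 processed transcripts. The called retained-intron rows came from Srsf3, Srsf5, Srsf6 and Srsf11. Rows of a gene can share exons and fragments, so they are not separate observations. The share of all rows called within each class is not given, and the classes were not compared. The median log2 fold changes of the 4 classes, in the order above, were -0.59, -0.65, -0.53 and -0.30, beside -0.07 over all rows tested. Without 1 library the count of 15 became 8 (scrambled replicate 1), 9 (scrambled replicate 3), 4, 3 or 6 (Med13 morpholino replicates 1, 2 and 3), and without scrambled replicate 2 and Med13 morpholino replicate 1 together it was 4. With another library left out the count was above 15. The share of all rows called in these fits is not given. At gene level the listed fits called 5.95%, 3.54%, 4.61%, 2.96%, 4.27% and 8.3% of all genes lower, in that order.

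**Figure D3:**
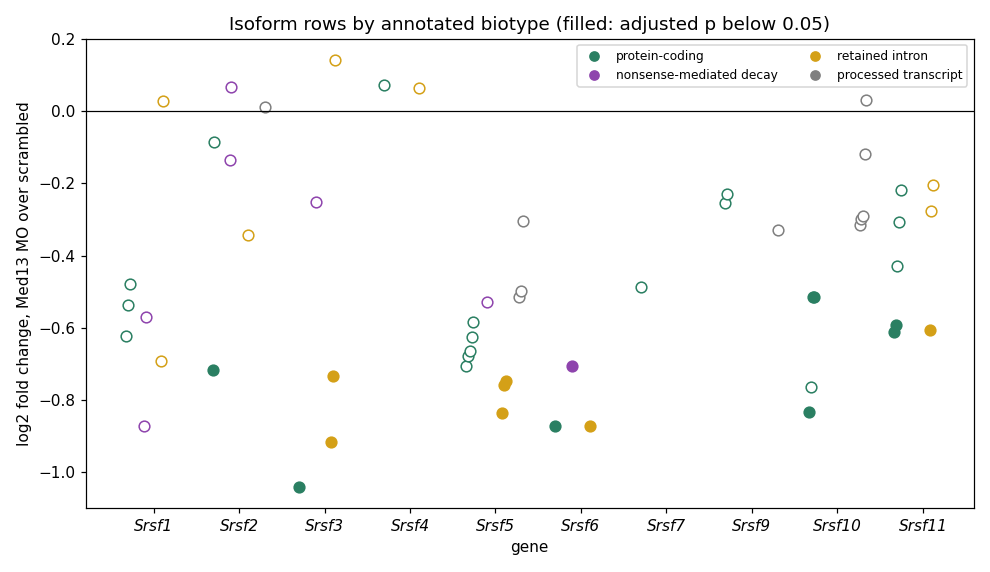
Log2 fold change (vertical axis, Med13 morpholino over scrambled) of the 56 tested isoform rows by gene, coloured by annotated class, with filled points for limma adjusted p below 0.05. The 15 filled points all lie below 0, and the coding row of Srsf3 is the lowest at -1.04.

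The 3 retained-intron rows of Srsf5 fell and its 5 coding rows were not called, although the balance of its retained-intron to coding rows was not called. Srsf5-207 went from 8.98 ± 3.32 to 4.79 ± 0.924 FPKM (log2 fold change -0.75), Srsf5-209 from 6.18 ± 2.95 to 2.83 ± 0.508 FPKM (-0.84) and Srsf5-212 from 11.4 ± 4.22 to 6.12 ± 1.18 FPKM (-0.76; SD, n = 4 per group, limma adjusted p = 0.0348, 0.0274 and 0.0358). The coding row Srsf5-201 went from 22.9 ± 8.29 to 13.7 ± 2.76 FPKM (-0.66, adjusted p = 0.0723). The 2 called retained-intron rows of Srsf3, Srsf3-204 (-0.73) and Srsf3-205 (-0.92), fell with its coding row. The remaining one, Srsf3-203, had a log2 fold change of 0.14 and was not called. The other called rows were Srsf10-202 (-0.83) and Srsf10-205 (-0.51), both coding.

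The coding row of Srsf2 fell although the gene as a whole was not called. Srsf2-201 had 23.9, 27.6, 24.0 and 23.0 FPKM in scrambled replicates 1 to 4 and 8.83, 15.1, 16.9 and 19.6 in Med13 morpholino replicates 1 to 4. No Med13 morpholino library reached the scrambled range (log2 fold change -0.72 ± 0.22 SE, limma adjusted p = 0.0401). Leaving out 1 library at a time removed this call in 7 of 8 cases, all but that of Med13 morpholino replicate 4. It was also lost with no filter on low values and without scrambled replicate 2 and Med13 morpholino replicate 1 together. The NMD row Srsf2-204 had 19.2, 23.1, 20.8 and 15.9 FPKM in scrambled and 13.1, 18.6, 19.1 and 21.1 in Med13 morpholino libraries, which overlap (-0.14 ± 0.19 SE, adjusted p = 0.662). Srsf2-204 keeps the normal stop codon and is spliced downstream of it. The 59 coding bases up to that stop, in capitals, lie at chr11:116852028-116852086 (GRCm38, minus strand, printed in the sense of Srsf2) and are followed in this model by only 7 more bases of the same exon and 2 further exons. They are shown because they place the splicing after the stop that sets this model apart from a poison exon.
Srsf2-204 end of coding sequence: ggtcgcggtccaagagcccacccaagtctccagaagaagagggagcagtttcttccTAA

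These differences between rows were tested as a balance, the log2 ratio of non-coding to coding FPKM of a gene (1 added to each), over 3244 genes with both kinds of row. Fragments on exons shared by rows can count in several of them, so the shares are of row FPKM and not of isoform molecules. Of 9 Srsf genes tested, 1 was called, Srsf2, where the non-coding share rose from 55.5 ± 1.33% to 63.9 ± 2.67% (SD, n = 4 per group; log2 ratio 0.48 ± 0.10 SE higher, limma adjusted p = 0.0228). Among all genes tested, 4.69% were called in either direction and 2.13% towards a higher non-coding share. In Srsf3 the share was 72.4 ± 0.886% and 80.2 ± 3.90%, and the gene missed the threshold (0.45 ± 0.12 SE, adjusted p = 0.0541). In both genes the groups did not overlap, as in 4.87% of all genes in this direction. For Srsf2 the call was lost without scrambled replicate 4 and without Med13 morpholino replicate 1, 2 or 3.

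With only NMD rows set against coding rows, an alternative chosen after the data were seen, 2 of 6 Srsf genes were called, and 3.95% of the 912 genes tested. These shares too are of row FPKM and do not give the part of the mRNA that is an NMD isoform. The poison exon makes up 456 of the 2594 bases of Srsf3-201, and Srsf2-204 is a model of 620 bases. In Srsf3 the NMD share was 45.6%, 44.3%, 46.9% and 47.9% in scrambled replicates 1 to 4 and 63.8%, 70.4%, 58.5% and 57.6% in Med13 morpholino replicates 1 to 4, with a gap between the groups (log2 ratio 0.79 ± 0.13 SE higher, limma adjusted p = 0.0111). In Srsf2 it was 45.1%, 46.0%, 46.7% and 42.0% in scrambled and 58.3%, 54.4%, 53.5% and 52.0% in Med13 morpholino libraries, again with no overlap (0.53 ± 0.09 SE, adjusted p = 0.0158). In Srsf11, whose NMD rows pass the filter only as a sum, the ranges overlapped (8.67 ± 2.29% and 14.4 ± 4.47%, adjusted p = 0.0729). Srsf6, whose poison exon row fell with its coding row, had 31.0 ± 4.03% and 32.0 ± 1.52% (adjusted p = 0.584), and Srsf1 and Srsf5 were not called either.

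With each library left out in turn, Srsf3 kept its call on the NMD share in all 8 fits, and Srsf2 in 7, losing it without Med13 morpholino replicate 2 (adjusted p = 0.0514). Over these fits and the one without scrambled replicate 2 and Med13 morpholino replicate 1, the adjusted p ranged from 0.0183 to 0.0624 in Srsf3 and from 0.0236 to 0.0619 in Srsf2. Neither was called in the fit without those 2 libraries, where the log2 ratios were 0.75 and 0.48. With only retained-intron rows against coding rows, 0 Srsf genes were called, beside 5.72% of all genes tested.

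**Figure D4:**
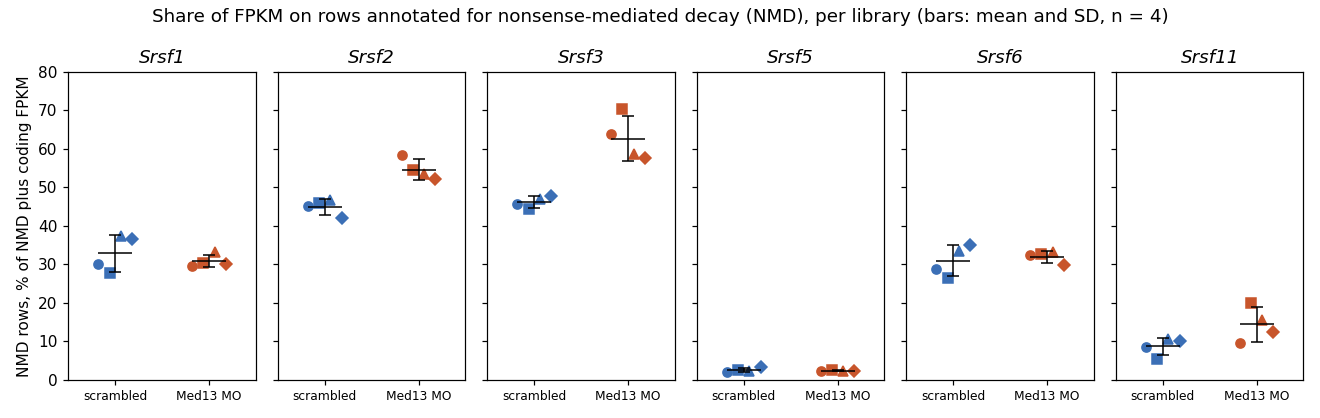
Percent of a gene's NMD plus coding FPKM that lies on NMD rows (vertical axis), per library, for the 6 Srsf genes whose NMD rows together and coding rows together reach the tested level. Points are libraries, and bars give the mean and SD. Rows with shared exons can hold the same fragments, so the percent is not a share of isoform molecules. In Srsf2 and Srsf3 all 4 Med13 morpholino libraries lie above all 4 scrambled libraries.

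Several rows can hold reads of other genes. Srsf2 shares 25.3% of its exonic bases with the antisense genes Mettl23 and Mfsd11, and its NMD row Srsf2-204 shares 72.3%, its coding row Srsf2-201 39.4%. Whether the counting used strand is not given in the sources. Mettl23 had 9.55 ± 0.944 and 6.51 ± 1.15 FPKM and Mfsd11 8.54 ± 1.48 and 6.40 ± 1.81 FPKM (SD, n = 4 per group), and what part they have in the balance of Srsf2 was not tested. Srsf3 shares no exonic bases, but 4 other genes hold near copies of its coding row (at least 95% identity over at least 200 bases). Of these, Gm12355 had 2.24 ± 1.17 and 0.899 ± 0.288 FPKM (limma adjusted p = 0.0372). Gm9761 had 3.46 ± 0.863 and 1.66 ± 1.02 FPKM (adjusted p = 0.0542), and Gm7083 averaged 0.018 FPKM over the 8 libraries. What part they have in the values of Srsf3 was not tested. In Srsf3, 4 of the 5 rows held fragment numbers off the step of 0.5 found in most rows. Srsf4 shares 43.0% of its exonic bases with the antisense gene Gm12992, which had 2.39 ± 0.451 and 2.54 ± 0.209 FPKM. Near copies also exist for Srsf10 in 2 genes and for Srsf5 in 1, so the values of these members are uncertain to that extent. Srsf7-201, the only row of Srsf7, and the untested row Srsf9-202 also held fragment numbers off the step of 0.5.

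Promoter sequence was taken from the RefSeq table for GRCm38.p6, which matched all 10 members with 13 windows, since some genes have several starts. The window searched ran from 250 bases before to 50 after each start, on both strands, by exact letters, and a gene was counted if any of its windows held them. The 13 windows had a GC content of 56.0% to 78.3%, above the median of 52.7% over all windows. The letters GGGCGG (a GC box) were in 9 of the 10 genes and in 38.2% of all genes, CCGGAA (an ETS core) in 6 and 16.7%, and CCAAT in 4 and 41.1%. The TATA box letters, TATAAA, were in 2 members (Srsf2 and Srsf3) and in 15.7% of all. The letters CACGTG (an E box) were in 0 of the 10 members and in 8.09% of all, and AAGATGGCG (a YY1 motif) in 0 and 1.64%. All genes here are the 27025 with a promoter window, whether or not they were tested for expression. No comparison with genes of like expression or GC content was made. The 250 bases before the RefSeq start are shown for Srsf3 and Srsf6, both of which fell. They were picked because of this pair only Srsf3 holds the TATA letters and only Srsf6 the GC box. Capitals mark the TATA, CCAAT and GC box letters on either strand. The stretch of Srsf3 lies at chr17:29032410-29032659 and that of Srsf6 at chr2:162931258-162931507, both on the plus strand. In the gene models used for the rows, Srsf3 already starts at chr17:29032628. The end of its stretch, with the TATA letters, therefore lies inside that model.
Srsf3 promoter: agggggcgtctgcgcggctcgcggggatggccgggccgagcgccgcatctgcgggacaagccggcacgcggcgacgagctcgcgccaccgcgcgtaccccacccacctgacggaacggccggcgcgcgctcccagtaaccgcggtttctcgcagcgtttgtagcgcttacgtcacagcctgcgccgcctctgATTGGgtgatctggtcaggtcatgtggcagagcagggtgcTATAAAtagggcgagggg
Srsf6 promoter: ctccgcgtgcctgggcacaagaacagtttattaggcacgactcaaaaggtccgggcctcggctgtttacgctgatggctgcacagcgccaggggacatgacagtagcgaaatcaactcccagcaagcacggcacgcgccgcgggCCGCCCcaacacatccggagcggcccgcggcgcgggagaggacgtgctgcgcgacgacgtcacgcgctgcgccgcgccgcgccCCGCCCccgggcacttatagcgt

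Around the family, 96 genes of 5 lists were tested, of SR-related proteins, SR kinases, import and mRNA export factors, NMD factors and the hnRNP and PTB proteins that often act against SR proteins. Of these, 18 fell and 0 rose, beside 7.81% and 9.29% of all genes tested (4 were higher at an unadjusted p below 0.05: Srpk2, Smg6, Rbm8a and Ptbp3). The 18 became 11 and 9 without scrambled replicate 1 or 3, where 5.95% and 3.54% of all genes were called lower. Without Med13 morpholino replicate 1, 2 or 3 it was 10, 6 and 11 (4.61%, 2.96% and 4.27% of all genes). Without scrambled replicate 2 and Med13 morpholino replicate 1 it was 12 (8.3%). With another library left out the count was above 18.

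Of 36 SR-related genes tested, 6 fell and 0 rose (7.81% and 9.29% of all genes), with a median log2 fold change of -0.32. Srek1, a regulatory SR-like protein, had 9.95, 9.47, 12.01 and 9.42 FPKM in scrambled replicates 1 to 4 and 2.84, 3.75, 4.48 and 5.51 in Med13 morpholino replicates 1 to 4. The groups lay well apart (log2 fold change -1.14 ± 0.18 SE, limma adjusted p = 0.00171). U2surp, a partner of the U2 particle, went from 16.1 ± 1.66 to 8.65 ± 0.451 FPKM (-0.82, adjusted p = 0.00318), and Luc7l2, a relative of a yeast U1 component, from 53.9 ± 22.3 to 25.3 ± 0.780 FPKM (-0.98, adjusted p = 0.0145; SD, n = 4 per group). Scaf11 (-0.66) and Luc7l3 (-0.67) also fell. Ppig, a cyclophilin with an SR tail, went from 185 ± 23.3 to 112 ± 19.7 summed FPKM (-0.73, adjusted p = 0.0174), but its most abundant row alone turned the other way (0.80, adjusted p = 0.0137).

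Among 8 kinases that phosphorylate SR proteins or belong to their families, 1 fell and 0 rose, against the same background of 7.81% and 9.29% (median log2 fold change -0.13). This was Prpf4b, a kinase of the spliceosome, from 10.7 ± 1.89 to 5.49 ± 1.73 FPKM (SD, n = 4 per group; -0.87, limma adjusted p = 0.0125). Srpk1, the main cytoplasmic SR kinase, was not called, with 75.6 ± 9.89 FPKM after Med13 morpholino (-0.33, adjusted p = 0.150). Of 16 import and export genes, 3 fell, beside 7.81% of all genes (median -0.07): Tnpo1, a nuclear import receptor, from 25.9 ± 2.99 to 16.2 ± 0.987 FPKM (-0.64, adjusted p = 0.0132), and the THO export complex members Thoc7 (-0.81, adjusted p = 0.0360) and Thoc2 (-0.52, adjusted p = 0.0436). Tnpo3, also on this list and named after its values were seen, was not called. It had 46.4 ± 4.63 and 45.1 ± 9.24 FPKM (-0.06, adjusted p = 0.843). Leaving out 1 library at a time removed the call of Thoc7 in 6 of 8 cases, of Thoc2 in 7 and of Tnpo1 in 1.

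Of 16 genes of nonsense-mediated decay tested, 2 fell and 0 rose (7.81% and 9.29% of all genes), and the median log2 fold change of -0.02 was close to that of all genes. Magohb, an exon junction complex subunit, went from 4.38 ± 0.776 to 1.76 ± 0.994 FPKM (SD, n = 4 per group; -1.02, limma adjusted p = 0.00933). Upf3b, which bridges that complex to the decay factors, went from 9.997 ± 2.28 to 5.68 ± 0.767 FPKM (-0.70, adjusted p = 0.0185). Of 20 hnRNP and PTB genes, 6 fell, beside 7.81% of all genes (median -0.37). Hnrnpll, a splicing regulator related to Hnrnpl, fell most, from 9.35 ± 1.36 to 3.09 ± 0.598 FPKM (-1.34 ± 0.16 SE, adjusted p = 0.000402). Hnrnpd (-0.71), Hnrnpl (-0.69), Hnrnpu (-0.66), Hnrnpa0 (-0.85) and Hnrnpk (-0.49) were the others.

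**Figure D5:**
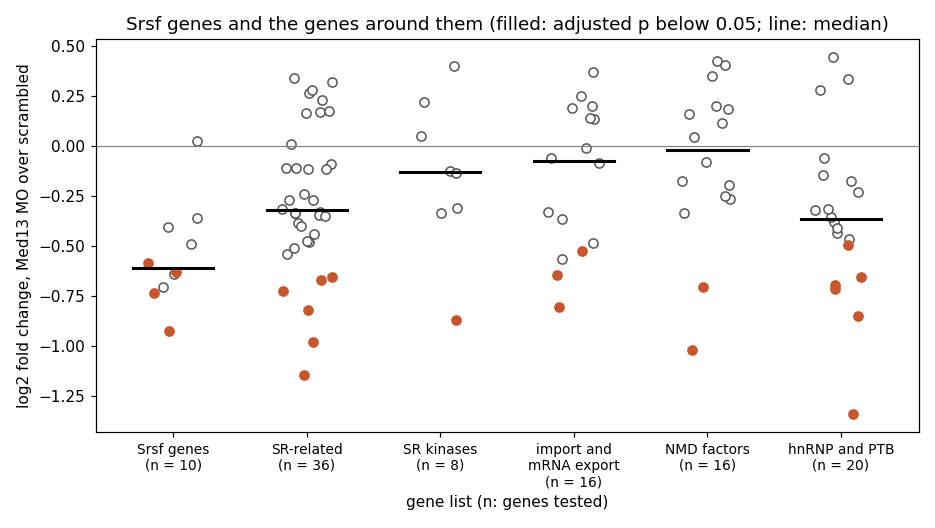
Log2 fold change (vertical axis, Med13 morpholino over scrambled) of each tested gene in the family and in 5 lists around it, with horizontal jitter. Filled points have a limma adjusted p below 0.05, and bars are list medians, the lowest of which is that of the Srsf genes at -0.61.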

How the data were processed

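The authors deposited one table of FPKM values per Ensembl transcript. BWA and mm10 are named in the submitters' processing notes. Which tool counted, with which annotation and strand setting, is not given in the sources. Per the labels' protocols, RNA was amplified and 400 ng of cDNA went into each library. In 3758 of 97496 rows, all with a hyphen in the symbol, text stood in a column of values. They were left out, and 0 value columns were unmatched to samples. Of the rows used, 98.7% matched GENCODE M21 (GRCm38), which gave biotypes and exons. Of low values, 94.3% to 94.4% per library were multiples of 0.5 fragments (within 0.01 of a step), which gave the library totals. Amplified reads carry no molecular identifiers, so totals bound counting error only.

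Rows were summed per symbol, and features with a mean of at least 1 FPKM were tested on the log2 scale after adding 1, using limma 3.58.1 (R 4.3.3, mean-variance trend, off for the balance, two-sided, Benjamini-Hochberg). Fold changes on this scale understate those of low genes. Scripts were tested on simulated data. Med13 was tested over all 70 assignments (smallest possible p 0.0286). Near copies of the most abundant coding row of each gene were sought with BLAST 2.17.0. The members and gene lists were chosen with earlier results of these data known. Named were the 10 Srsf genes, their called rows and most abundant rows, up to 4 called genes of each list by adjusted p (filled to 2 by abundance), Med13, and the 5 genes most like the family mean. Others, such as Scaf11, Luc7l3, Hnrnpa0 and Hnrnpk, were named after their values were seen. Alternatives covered the pseudocount, the filter, scaling, sample weights, choice of rows, a replicate block and each library left out.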

Additional observations from a re-analysis of the deposited data

Results flagged for a closer look

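The non-coding share of Srsf9 in Med13 morpholino replicate 1 was 22.6%, against 31.1% to 31.7% in the other 3 Med13 morpholino libraries. Its gap to the nearest of them was 0.935 of the group's range, above Dixon's 95% critical value for 4 samples. This was 1 of 38 groups of 4 libraries checked, and chance gives about 1 such value in 20 groups. The balance of Srsf9 was not called.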

How the results depend on the processing

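Calls of lower level depended on the filter and on single collections. Without a filter on low values 0 of the 10 Srsf genes were called lower, 1 of their isoform rows and 5 of the genes in the lists around them, while the median log2 fold change of the Srsf genes stayed at -0.61 and 1.11% of all genes were called lower. Leaving out each library in turn gave 0 to 5 Srsf genes, 3 to 18 isoform rows, 6 to 21 list genes and 0 to 1 genes for the balance of non-coding to coding rows. It gave 1 to 2 genes for the balance of NMD to coding rows. In these fits 2.96% to 11.4% of all genes were called lower. For the alternatives in this section, the shares of all isoform rows called and of all genes called on the balances are not given here. The share of all genes called higher is not given either. Without scrambled replicate 2 and Med13 morpholino replicate 1, chosen after seeing the data, 0 Srsf genes and 4 isoform rows were called lower, beside 8.3% of all genes. In that fit 0 Srsf genes were called on either balance, and 1 list gene (Tra2b) was called higher. A filter at 5 FPKM gave 2 genes on the balance (Srsf2 and Srsf3), and, also chosen after seeing the data, NMD rows alone gave 2 and retained-intron rows alone 0. Sample weights called 36 list genes lower and 7 higher, and 6 Srsf genes and 22.3% of all genes lower. List genes called higher numbered 1 (Smg6) with median-ratio scaling, 2 (Rbm25 and Srpk2) with protein-coding rows and 3 (Rbm25, Rbm39 and Ppig) with the most abundant row. The causes were not tested.

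Sign changes were confined to 19 of the 1055 single values recomputed, and all but Ppig with its most abundant row (0.80) were in values that were not called. They were Srsf4 (-0.033 to 0.14 with 1 library left out, -0.017 without both), its row Srsf4-202 (-0.028 to 0.17), Srsf2-204 (-0.23 to 0.0012, 0.076 without both), and Med13 (-0.0011 to 0.10, -0.025 with sample weights, -0.016 without both). On the balance they were Srsf9 (-0.20 to 0.032, 0.025 with sample weights, 0.077 without both), Srsf5 (-0.11 to 0.00857, 0.15 with NMD rows alone) and Srsf6 (-0.0820 to 0.044, 0.15 with NMD rows alone). The log2 ratio is taken after adding 1 to each sum. Without it, the mean NMD share of Srsf5 was 2.57% in scrambled and 2.38% in Med13 morpholino libraries, the other direction. The replicate numbers used here follow the order of the numbers ending the titles within each group. Those title numbers alternate between the groups, so replicates of equal number are neighbours. The labels do not say that neighbours were collected together. A fit with a replicate block on neighbouring numbers, chosen after seeing the data, called 5 Srsf genes lower (Srsf5 added), 22 isoform rows, 20 list genes and 1 gene on the balance (2 with NMD rows). It called 10.5% of all genes lower. Deviations of neighbours from their group means correlated at 0.00851 to 0.378 across genes, and 2 of the 4 scrambled libraries and their neighbours correlated best with each other. The called isoform rows held at least 113.5 fragments in every library, of which some are counted in more than 1 row.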
